A study of Mus musculus with 4 samples.

Results

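Dzip3 is a RING-type E3 ubiquitin ligase that can place ubiquitin on histone H2A at lysine 119. Ring1B, the catalytic subunit of Polycomb repressive complex 1 (PRC1), places the same mark, and in mES cells PRC1 and ubiquitinated H2A (ubH2A) are best known from the CpG-rich promoters of silent developmental regulators. A region bound by Dzip3 where neither a Ring1B nor a ubH2A peak was called is therefore a place where the Dzip3 signal can be described apart from the known Polycomb pattern.

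The regions described here are 376 Dzip3 peaks. They were chosen by the deposited overlap columns and by position: no peak of the Ring1B, ubH2A or input DNA list covered any part of them, and their nearest base lay within 4 kb of a transcription start site (TSS) of any annotated transcript of a protein-coding gene in GENCODE vM1 (mm9), starts inside a gene included. They make up 376 of the 6482 peaks of the Dzip3 list, 376 of its 2382 peaks with no overlap, and 376 of its 859 peaks within 4 kb of a TSS. The libraries were made from E14 mES cells of strain 129/Ola at passage 3-5, cultured without feeders in N2B27 medium with PD0325901, CHIR99021 and LIF (2i + LIF), with no knockdown or other treatment. There is 1 ChIP-seq library each for Dzip3, Ring1B and ubH2A and 1 of input DNA, so no value below has a replicate error and no test between libraries was possible. Heights are in RPM, reads scaled to library size, and the library sizes they imply range from 48.3 M reads (input DNA) to 67.0 M (ubH2A). Antibodies purified by the authors from immunised rabbits were used for the 3 ChIP libraries. Shares carry 95% Wilson intervals and medians carry 95% order-statistic intervals, and both cover counting error over peaks only. The choice rests on overlap, on Dzip3 height and on distance from the TSS, so these are given as description. Base composition, side of the TSS and gene families were not used in it directly. Leaving out peaks that overlap Ring1B or ubH2A peaks can still shift them, so their contrasts with Ring1B peaks may follow in part from the choice. The annotated starts were used, so the share of exons follows in part from the distance limit.

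The sequences of the regions differ in kind. The following are read from mm9 on the plus strand, without bases annotated as UTR, and limited to 300 bases. They were picked to show a tandem repeat, repetitive coding exons and sequence without a repeat. The region in Lck, which encodes a Src-family kinase of T cells, is a tandem repeat. Capitals mark alternate blocks of 58 bases, the shift at which it best matches itself.
Lck, chr4:129230002-129230287: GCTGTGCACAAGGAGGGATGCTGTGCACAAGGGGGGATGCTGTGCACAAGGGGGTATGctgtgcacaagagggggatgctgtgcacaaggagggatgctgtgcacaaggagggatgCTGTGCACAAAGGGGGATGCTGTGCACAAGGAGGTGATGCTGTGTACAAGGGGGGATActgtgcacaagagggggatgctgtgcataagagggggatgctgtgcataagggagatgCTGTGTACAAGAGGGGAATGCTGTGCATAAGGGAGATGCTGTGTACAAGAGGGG
Other members lie in coding exons whose sequence repeats with a period that is a multiple of 3. Shown are the third highest region, in the predicted gene Gm14177 of the keratin-associated cluster, and those in Krtap4-9, a keratin-associated protein of the hair shaft, and Lce1m, a protein of the late cornified envelope of skin. Capitals mark CAGCAG or its reverse complement CTGCTG.
Gm14177, chr11:99546704-99546954: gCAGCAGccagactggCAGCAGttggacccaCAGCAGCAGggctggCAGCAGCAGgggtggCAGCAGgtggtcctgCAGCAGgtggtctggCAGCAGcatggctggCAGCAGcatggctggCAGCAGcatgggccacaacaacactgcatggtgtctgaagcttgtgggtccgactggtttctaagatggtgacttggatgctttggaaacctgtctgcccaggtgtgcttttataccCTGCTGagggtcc
Krtap4-9, chr11:99647056-99647300: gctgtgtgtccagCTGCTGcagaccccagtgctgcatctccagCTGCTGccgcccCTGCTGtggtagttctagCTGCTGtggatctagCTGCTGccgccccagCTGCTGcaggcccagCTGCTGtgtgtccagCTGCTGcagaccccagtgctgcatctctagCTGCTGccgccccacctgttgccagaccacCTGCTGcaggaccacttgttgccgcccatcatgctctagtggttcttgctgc
Lce1m, chr3:92822143-92822343: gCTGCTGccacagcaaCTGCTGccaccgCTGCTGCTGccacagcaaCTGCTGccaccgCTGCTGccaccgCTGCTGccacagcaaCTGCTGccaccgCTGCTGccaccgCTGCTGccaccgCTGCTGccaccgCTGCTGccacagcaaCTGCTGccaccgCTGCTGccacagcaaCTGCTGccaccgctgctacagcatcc
A further kind is GC-rich sequence without a repeat. It is shown by the region over a TSS of Nbeal2, a gene needed for platelet alpha granules, with CAGCAG or CTGCTG in capitals, and by that in the coding exon of Lrrn4, with the Sp1-type word GGGCGG in capitals.
Nbeal2, chr9:110534580-110534879: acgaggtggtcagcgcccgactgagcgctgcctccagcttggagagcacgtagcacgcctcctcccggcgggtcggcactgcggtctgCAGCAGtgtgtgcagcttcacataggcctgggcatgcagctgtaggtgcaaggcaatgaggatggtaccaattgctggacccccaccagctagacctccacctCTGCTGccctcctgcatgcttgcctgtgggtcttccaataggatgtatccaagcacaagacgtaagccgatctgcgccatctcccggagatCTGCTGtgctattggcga
Lrrn4, chr2:132705188-132705487: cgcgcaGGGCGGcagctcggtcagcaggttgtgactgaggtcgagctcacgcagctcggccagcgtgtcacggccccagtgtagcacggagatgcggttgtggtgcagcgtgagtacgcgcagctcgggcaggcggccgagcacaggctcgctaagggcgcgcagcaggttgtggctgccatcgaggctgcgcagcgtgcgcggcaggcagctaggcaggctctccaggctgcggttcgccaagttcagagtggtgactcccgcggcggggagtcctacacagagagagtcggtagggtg

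To see how the 4 libraries compare within these regions, their listed reads were used. Dzip3 reads ran from 36 to 171 with a median of 69. Ring1B reads ran from 0 to 93 with a median of 29, and ubH2A reads from 0 to 92 with a median of 28. Input reads ran from 0 to 32 with a median of 3. The ranges of the Dzip3 and Ring1B libraries overlap, but within single regions Dzip3 was nearly always the highest. The Dzip3 level in RPM was above the Ring1B level in 373 of 376 regions and above the ubH2A level in 376 of 376. It was more than 2 times the Ring1B level in 236 regions (62.8%, 57.8% to 67.5%). These counts follow in part from the choice of regions.

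Ring1B and ubH2A reads were nonetheless present. As reads per kb over the mean of the sequenced genome, the medians were 14.7 for Dzip3, 6.36 for Ring1B, 4.57 for ubH2A and 0.764 for input DNA. Ring1B was above input in RPM in 362 of 376 regions (96.3%) and ubH2A in 357 of 376 (94.9%). In 188 regions the Ring1B reads per kb reached the lowest value found in a Ring1B peak within 4 kb of a TSS, but only 3 regions reached the lower quartile of those peaks. "Dzip3 only" is thus a statement about called peaks, whose lowest listed height was 33 extended reads for Dzip3, 31 for Ring1B and 32 for ubH2A. No IgG library was analysed here, so the level that an antibody without a target would give in these regions was not measured.

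The Ring1B to Dzip3 ratio, scaled to library size, had a median of 0.439 (0.408 to 0.466) in these regions. It was 0.402 (0.391 to 0.415) in the 2006 Dzip3-only peaks farther than 4 kb from a TSS, and the intervals overlap. The ubH2A to Dzip3 ratio was 0.324 (0.293 to 0.339) near promoters and 0.314 (0.307 to 0.326) farther away, which overlap as well. By comparison, the 182 Dzip3 peaks within 4 kb that overlap a Ring1B but no input peak had a Ring1B to Dzip3 ratio of 1.08, and the 3487 Ring1B peaks within 4 kb without an input peak had 5.80. The last pair of values follow from how those sets were called.

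**Figure D1:**
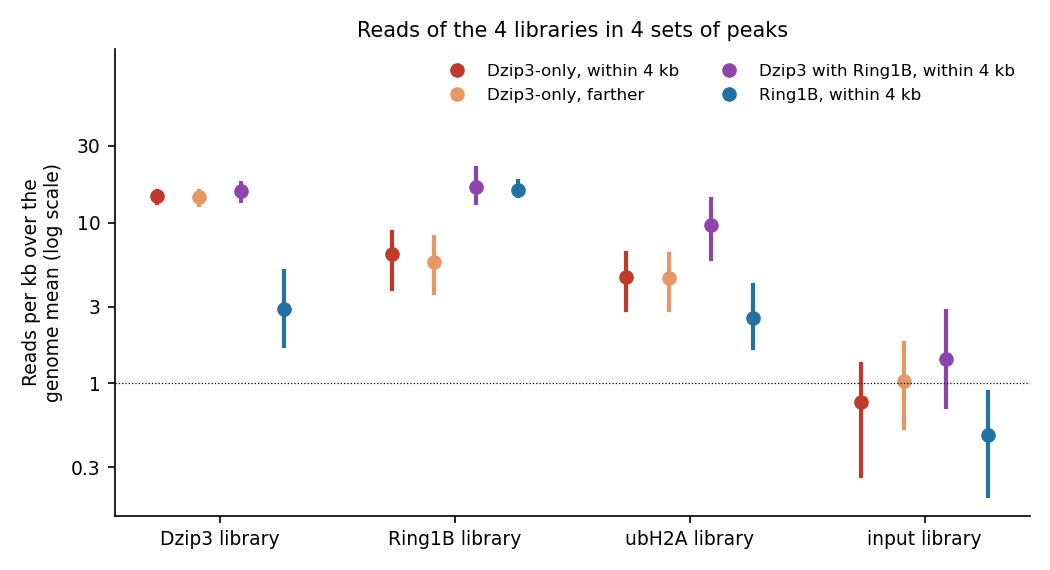
Reads per kb over the genome mean (log scale) of each of the 4 libraries, for 4 sets of peaks. Points are medians over peaks, bars run from the lower to the upper quartile, and the dotted line is the genome mean. In the Dzip3-only regions within 4 kb the Dzip3 median is 14.7, and the Ring1B median of 6.36 and ubH2A median of 4.57 lie between it and the input median of 0.764.

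The regions were weak as Dzip3 peaks. Their median height was 0.676 RPM, against 0.788 RPM in Dzip3 peaks within 4 kb that overlap a Ring1B but no input peak. The height was only 33 to 36 extended reads in 219 of 376 regions (58.2%), at the lowest that the list holds, and 169 (44.9%) had the shortest listed length of 200 bp. Only 60 of the 376 belong to the stronger 50% of the Dzip3 list. In contrast the median listed fold over input DNA was 15.2 (12.8 to 17.6), and 12.04 in the Dzip3-only peaks farther away. No input read fell in 60 regions, for which the list gives the number of Dzip3 reads plus 1 as the fold. With these set to the bound that 3 input reads give, the median was 14.9. A further 130 regions (34.6%) held only 1 to 3 input reads, and their listed folds, which were kept, rest on those few reads.

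The highest region lay upstream of a TSS of Efcab6, which encodes an EF-hand protein, at 1.97 RPM. There were 156 reads of Dzip3, 14 of Ring1B, 21 of ubH2A and none of input DNA in it, so Dzip3 was at least 47.1-fold above input at a floor of 3 reads in that library. The region upstream of a TSS of Clip1, which encodes a protein of growing microtubule ends (1.58 RPM), held 171 Dzip3, 73 Ring1B, 47 ubH2A and 11 input reads. Clip1 shows that many Ring1B reads can lie under a region where no Ring1B peak was called. Gm14177 (1.39 RPM) held 151 Dzip3, 64 Ring1B, 35 ubH2A and 6 input reads, and its peak covers the TSS. Sorcs2, which encodes a sortilin-family receptor of neurons, held 124 Dzip3, 69 Ring1B, 31 ubH2A and 6 input reads. In Lck the ubH2A reads were higher, with 109 Dzip3, 41 Ring1B, 81 ubH2A and 6 input reads. Dzip3 was the highest of the 4 libraries in each of these regions. Among their 31-base words, 51.6% at Clip1, 42.4% in Gm14177, 37.1% in Lck and 24.0% at Efcab6 occur more than once in mm9. In Sorcs2 the share was 0%. Repeated words make the placing of reads less certain.

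The next regions by height were those at Gltpd1, a ceramide-1-phosphate carrier, Gm11570, Fam59b, Phactr3, 4930451C15Rik, Ptges and Gm17385, between 1.15 and 0.957 RPM. Ptges, the inducible prostaglandin E synthase, had the lowest Ring1B count among the 12 highest regions, with 117 Dzip3, 5 Ring1B, 23 ubH2A and 5 input reads. Gm17385 had the highest input count of these, with 104 Dzip3, 54 Ring1B, 31 ubH2A and 30 input reads and a listed fold of 3.03. All 31-base words of the Gm17385 region occur more than once in mm9, as do 59.1% of those at 4930451C15Rik. Of the 12 highest regions 9 lie in introns or intergenic sequence. Apart from the one in Lck, these had GC contents between 41.6% and 50.6%, below the median of the set. The 5 regions with the highest listed fold were those of Efcab6, Krtap4-9, Spns1, Mrps6 and either Mgat5b or Sgms1, which tied, and each of them had 0 input reads. Against the floor of 3 reads the bounds are 27.2-fold for Krtap4-9 and Spns1, 26.6-fold for Mrps6 and 26.0-fold for Mgat5b and Sgms1.

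At the other end were regions where Ring1B nearly equalled Dzip3. The Ring1B to Dzip3 ratio was 1.12 upstream of Fcgr3, an Fc gamma receptor of myeloid cells, with 58 Dzip3, 63 Ring1B, 41 ubH2A and 2 input reads. It was 1.05 in Cbr2, a carbonyl reductase, with 51 Dzip3, 52 Ring1B, 16 ubH2A and 0 input reads. It was 1.04 at Msrb3, a methionine sulfoxide reductase, with 78 Dzip3, 79 Ring1B, 38 ubH2A and 1 input reads. These 3 are the only regions in which Ring1B exceeded Dzip3 in RPM. Gm10013 (0.976) and Gm4858 (0.958) followed. For ubH2A the highest ratios to Dzip3 were 0.778 at Dtnb, 0.777 at Galntl1, 0.768 at Fbxo39, 0.767 at Gm4858 and 0.763 at Derl1, which acts in protein export from the endoplasmic reticulum. At Dtnb, a dystrobrevin gene, this meant 49 Dzip3, 15 Ring1B, 48 ubH2A and 3 input reads. Gm4858 was near the top for both marks, with 58 Dzip3, 54 Ring1B, 56 ubH2A and 13 input reads.

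The position of the regions relative to the TSS was not symmetric. The peak covered a TSS in 38 of 376 regions (10.1%, 7.45% to 13.6%), lay upstream in 126 (33.5%, 28.9% to 38.4%) and lay downstream in 212 (56.4%, 51.3% to 61.3%). Windows of 209 bp, the median length of the regions, laid every 1000 bp over all sequence within 4 kb of a TSS gave 3.99%, 46.6% and 49.4%. Downstream regions were crowded near the TSS, with 37 (9.84%, 7.22% to 13.3%) at 1 to 249 bp against 3.95% of windows. In the same distance upstream there were 12 (3.19%, 1.83% to 5.49%), against 3.76% of windows. This was not particular to these regions. Dzip3 peaks within 4 kb that overlap a Ring1B but no input peak had 8.24% (5.06% to 13.2%) downstream and 2.20% upstream at that distance. Ring1B peaks within 4 kb without an input peak had 13.1% and 5.82%. A TSS was covered by 9.34% and 21.4% of these 2 sets. When the centre of the peak was used in place of its nearest base, 63.0% lay downstream.

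**Figure D2:**
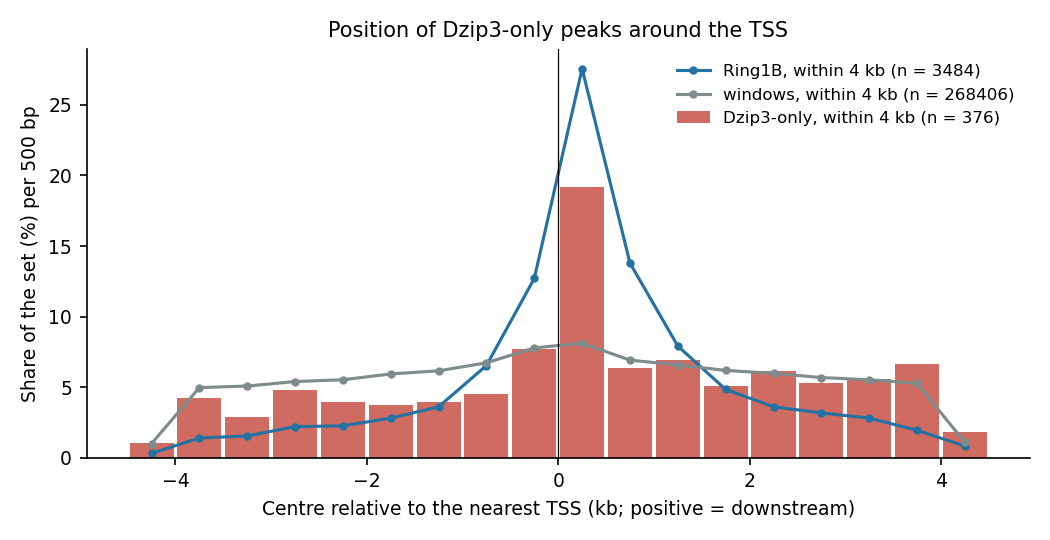
Share of each set per 500 bp of distance between the centre of the peak and the nearest TSS, in kb, with positive values downstream. Bars are the 376 Dzip3-only regions, lines are Ring1B peaks within 4 kb without an input peak and tiled windows. In the first 500 bp downstream lie 72 regions (19.1%), against 27.6% of Ring1B peaks and 8.12% of windows. Farther downstream the bars run close to the windows. Upstream most bars lie below them, such as 4.52% against 6.73% from 500 to 1000 bp.

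The 6 highest regions over a TSS were at Gm14177, Nbeal2, Zfp964, Spns1, Dnaja3 and Lama5. Nbeal2 held 105 Dzip3, 34 Ring1B, 44 ubH2A and 8 input reads. At Spns1, a lysosomal phospholipid transporter, the counts were 90 Dzip3, 46 Ring1B, 42 ubH2A and 0 input reads, and at Lama5, the laminin alpha 5 chain, they were 78 Dzip3, 44 Ring1B, 47 ubH2A and 0 input reads. In these 3 the Ring1B and ubH2A counts were close to each other. Zfp964, a zinc finger gene, held 84 Dzip3, 53 Ring1B, 39 ubH2A and 8 input reads. Dnaja3, a mitochondrial cochaperone, held 86 Dzip3, 28 Ring1B, 20 ubH2A and 8 input reads. Over the 38 regions on a TSS the median GC content was 60.5% and 12 (31.6%) met a CpG island criterion, namely over 50% GC with a CpG observed/expected ratio over 0.6. Most regions on a TSS therefore did not meet it.

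Coding exons were frequent among the regions, and more so the nearer the limit was set to the TSS, with shares of 34.1% at 2 kb, 26.9% at 4 kb and 19.6% at 10 kb. The windows within 4 kb carry the same limit, and the peaks farther away do not. The centre lay in a coding exon in 101 of 376 regions (26.9%, 22.6% to 31.6%), against 6.13% of the tiled windows, 3.89% of Dzip3-only peaks farther from a TSS and 17.0% (12.3% to 23.2%) of Dzip3 peaks within 4 kb with a Ring1B and no input peak. Ring1B peaks within 4 kb had a like share, 30.5% (29.0% to 32.1%). Other exons held 32 regions (8.51%, windows 7.45%), introns 185 (49.2%, windows 57.8%) and intergenic sequence 58 (15.4%, windows 28.6%). Among the 37 regions that begin 1 to 249 bp downstream of a TSS, 17 (45.9%, 31.04% to 61.6%) were in a coding exon. The median was 69 Dzip3 reads in both coding exons and introns, 65.5 in other exons and 71 in intergenic regions, and Ring1B medians were 32, 27, 31.5 and 31 in the same order. Intergenic regions had the most input reads, with a median of 5.5 (4 to 7) against 2 in coding exons (2 to 4) and 3 in introns (3 to 4). Their ubH2A median was 34.5 (27 to 43), against 28 (23 to 32) and 26 (23 to 30).

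GC content is a measure that moves with coding sequence and with the regions. The median GC content was 57.0% (56.3% to 57.7%), against 45.2% in windows, 51.7% in Dzip3-only peaks farther away, 55.2% in Dzip3 peaks within 4 kb with Ring1B and 62.0% in Ring1B peaks within 4 kb. Windows weighted to the GC content of the regions, a comparison chosen after seeing the data, had a coding share of 15.2%, which is between the unweighted share and the 26.9% of the regions. Between 55% and 60% GC the coding share was 35.2% (27.4% to 43.9%, n = 125) in the regions, 19.97% (17.3% to 22.9%) in Ring1B peaks and 16.6% in windows. Between 60% and 65% GC it was 40.3% (29.7% to 51.8%, n = 72), 37.9% and 26.3%. At 50% to 55% GC the 3 shares were 9.59%, 7.89% and 7.63%, and the interval of the regions held the other values. The part of GC content in amplification or sequencing was not tested.

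**Figure D3:**
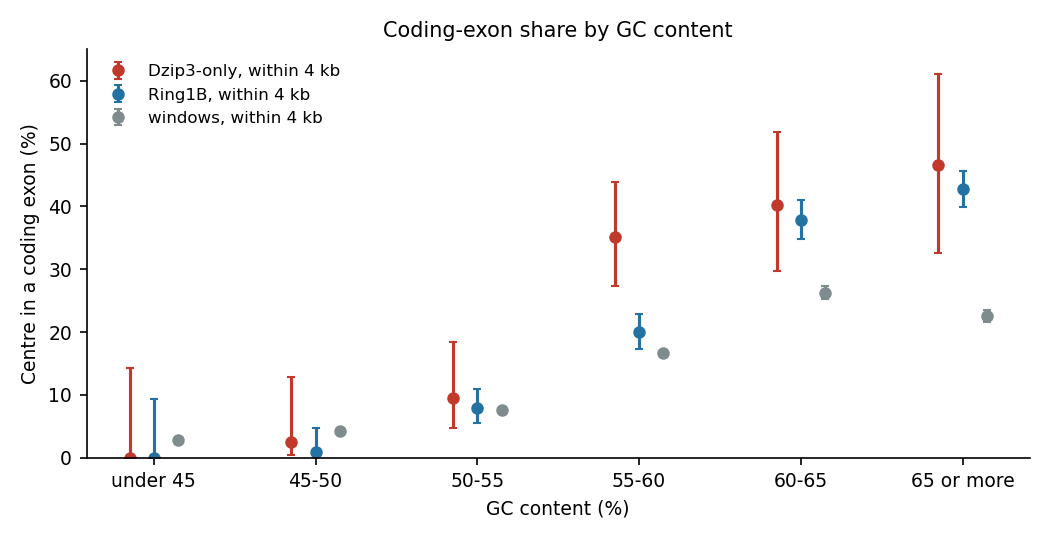
Share of peaks or windows whose centre lies in a coding exon, by class of GC content. Points are shares and bars are 95% Wilson intervals for the Dzip3-only regions, Ring1B peaks and tiled windows within 4 kb of a TSS. Above 55% GC the Dzip3-only shares are 35.2%, 40.3% and 46.5%, and those of the windows are 16.6%, 26.3% and 22.5%.

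High GC content did not mean CpG islands. The median CpG observed/expected ratio was 0.247 (0.220 to 0.285) in the regions, 0.187 in windows and 0.672 in Ring1B peaks within 4 kb. The CpG island criterion was met by 48 regions (12.8%, 9.77% to 16.5%), by 4.60% of windows and by 59.7% of Ring1B peaks. The promoters of the genes were a different matter. Of the 416 genes with a Dzip3-only region within 4 kb, 199 (47.8%, 43.1% to 52.6%) met the criterion at their outermost annotated start. This compares with 42.8% of all protein-coding genes and 55.2% of those with a Ring1B peak within 4 kb. The sequence scored was the 300 bases before and 100 after that start, which need not be the start near the region.

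Short words were counted on both strands. The E-box CAGGTG was present in 121 regions (32.2%, 27.7% to 37.1%), against 15.3% of windows and 21.9% of windows weighted by GC content. It was present in 30.2% (24.01% to 37.2%) of Dzip3 peaks within 4 kb with Ring1B and in 35.99% (34.4% to 37.6%) of Ring1B peaks within 4 kb, and these intervals overlap that of the regions. In Dzip3-only peaks farther away it was present in 23.1%. CAGCAG, a word looked at only after the sequences had been seen, was present in 169 (44.9%), against 19.3% of windows and 29.7% of weighted windows. In coding exons alone CAGCAG was present in 62.4% (52.6% to 71.2%) of regions, 33.02% of windows and 67.5% of Ring1B peaks, and in introns in 35.1%, 18.5% and 42.7%. The Ring1B peaks are longer, with a median of 335 bp, so their shares are not on the same footing. GGGCGG was in 38 regions (10.1%), 5.41% of windows and 41.6% of Ring1B peaks. CACGTG was in 7.18% of regions, 2.64% of windows, 6.73% of Dzip3-only peaks farther away, 6.04% of Dzip3 peaks within 4 kb with Ring1B and 11.1% of Ring1B peaks. Runs of A were rare, with AAAAAAAA in 2 regions (0.532%) and 9.12% of windows. In all, 16 words were searched, with CAGCAG added later. The CCAAT box was in 17.8% of regions and 25.4% of windows, TTAGGG in 5.05% and 8.08%, and GATAAG in 1.86% and 6.43%. CGCGCG was in 2.39% and 1.16%. TGACGTCA was found in 1 region (0.266%, windows 0.171%) and TGAGTCA in 14 (3.72%, windows 3.35%). None of the 5 words left was in more than 12 regions. These were the ETS word CCGGAAG (1.06%, windows 1.13%), the NRF1 word GCATGCGC (1.06%, windows 0.418%) and the YY1 word AAGATGG (3.19%, windows 4.78%). The repeats GAGAGAGA (2.13%, windows 3.65%) and GGAAGGAA (1.33%, windows 2.56%) were the others. A word in a region is a match of letters and not a binding site.

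Tandem repeats formed a second group among the regions. For each peak the shift of 2 to 60 bases with the highest share of matching bases was found, and a share of 0.6 or more was called periodic. This measure and its threshold were chosen after seeing the sequences. By it 61 regions (16.2%, 12.8% to 20.3%) were periodic, against 1.04% of windows, 26.7% of Dzip3-only peaks farther away, 35.2% of Dzip3 peaks within 4 kb with Ring1B and 5.42% of Ring1B peaks within 4 kb. The share depended on peak height and on the threshold. It was 28.3% in the 60 regions of the stronger 50% of the list, 12.7% with a limit of 2 kb, and 24.5% or 10.6% at thresholds of 0.5 or 0.7. At each of those thresholds it was below the share in Dzip3-only peaks farther away (36.04% and 16.4%) and above that in windows (2.59% and 0.488%). Of the 61, 43 were in introns, 11 in intergenic sequence and 6 in coding exons. They held 72 Dzip3, 36 Ring1B, 28 ubH2A and 3 input reads in the median. The regions of Clip1, Sorcs2, Lck and 4930451C15Rik, all named among the highest above, are periodic by this measure. CACACACA was in 67 regions (17.8%, 14.3% to 22.0%), in 26.4% of Dzip3-only peaks farther away and in 6.93% of windows.

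Repeats also bear on where reads can be placed. When the 31-base words of each region were counted in mm9, every word occurred once in 224 of 376 regions (59.6%), and at least 50% of the words occurred again in 70 (18.6%). In the Dzip3-only peaks farther away every word was unique in 32.9%, and in Dzip3 peaks within 4 kb with Ring1B in 14.3%. The 224 regions of unique sequence had a median of 67 Dzip3, 26 Ring1B, 25 ubH2A and 3 input reads and a GC content of 58.2%. They lay in coding exons in 72 cases (32.1%, 26.4% to 38.5%), so the share of coding exons was not lower without repeated sequence. The 70 mostly repeated regions had 72 Dzip3, 40.5 Ring1B, 31 ubH2A and 4 input reads in the median. Their median Ring1B to Dzip3 ratio was 0.553 (0.475 to 0.623), against 0.399 (0.352 to 0.444) in the regions of unique sequence.

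**Figure D4:**
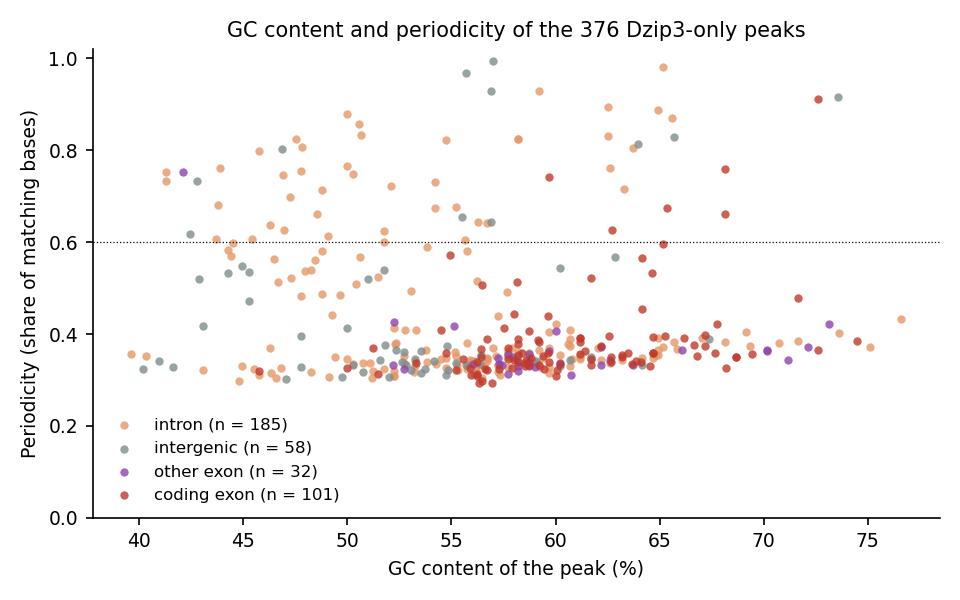
GC content (%) and periodicity (share of matching bases at the best shift) of each of the 376 Dzip3-only regions, coloured by the annotation at the centre. The dotted line is 0.6, which 61 regions reach, 43 of them in introns. Of the 101 coding-exon regions 6 reach it.

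The coding exons of repetitive proteins joined both features. At a periodicity of 0.5 or more, 13 of 101 coding regions (12.9%, 7.68% to 20.8%) were periodic, against 1.20% of coding windows. In all 13 the period was a multiple of 3, and this was so in 181 of 198 periodic coding windows. The densest 1-Mb stretch was chromosome 11 from 99 to 100 Mb, with 11 of the 376 regions, 14 of all Dzip3 peaks and 13 Ring1B peaks. It holds the type I keratin and keratin-associated genes, and its region at Smarce1 is at neither kind. In this stretch 8 of 11 regions were in coding exons and 7 of 11 had a periodicity of 0.5 or more. Krtap4-9 held 90 Dzip3, 54 Ring1B, 18 ubH2A and 0 input reads. Krtap4-2 held 65 Dzip3, 26 Ring1B, 15 ubH2A and 1 input reads, and Krtap9-5 held 70 Dzip3, 27 Ring1B, 21 ubH2A and 4 input reads. Dzip3 reads were above those of the other libraries in each of the 11, and 10 lie within 1 kb of a TSS. Krtap9-1 and Gm11562 are the most uncertain, because 100% and 97.02% of their 31-base words occur more than once in mm9. The share was 49.6% in Krtap4-9, 48.3% in Krtap4-2, 47.4% at Gm14193, 46.8% in Krt34, 42.4% in Gm14177 and 28.1% in Krtap4-16. Only 2 of the 11 regions had no repeated word.

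Next in number were chromosome 1 from 90 to 91 Mb, with 7 regions at Heatr7b1, Ugt1a genes and Hjurp, and chromosome 10 from 80 to 81 Mb, with 7 regions at genes such as Map2k2, Dapk3 and Gna15. Ring1B peaks numbered 12 and 13 in these stretches. Chromosome 15 from 76 to 77 Mb and chromosome 2 from 25 to 26 Mb held 5 each. Of the 3 stretches with 4 regions, the one on chromosome 3 from 92 to 93 Mb is described. It was picked after its values were seen, because 2 of its regions, in Lce1b and Lce1m, had a periodicity of 0.5 or more. It is the epidermal differentiation complex, whose genes encode the cornified envelope of skin. Its 4 regions were in the coding exons of Sprr2a2, Lce1b and Lce1m and upstream of Gm4858. Lce1m had a period of 27 bases with 72 Dzip3, 33 Ring1B, 11 ubH2A and 2 input reads. Repeated words made up 76.6% of this region, 90.1% of the one in Lce1b and 42.1% of the one at Gm4858. Sprr2a2 held 110 Dzip3, 59 Ring1B, 83 ubH2A and 18 input reads, and all of its words occur again in the genome. By chromosome, 11 held 47 regions (12.5%, 9.53% to 16.2%, windows 8.03%) and 5 held 43 (11.4%, 8.60% to 15.1%, windows 6.50%), while X held 3 (0.798%, windows 4.06%).

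The regions lay within 4 kb of 416 of 22380 protein-coding genes (1.86%). Most (333) had 1 such gene, 38 had 2 and 5 had 3 or more. Only 6 genes had more than 1 region. Heatr7b1, on chromosome 1, had 4, with between 68 and 82 Dzip3 reads, 28 to 56 Ring1B reads, 34 to 43 ubH2A reads and 2 to 8 input reads, all in sequence without repeated words. Cd300lh, Iffo1, Fam83a, Noc4l and Itln1 had 2 each. The pair at Fam83a had 91 and 79 Dzip3 reads, and all 31-base words of both occur again in mm9.

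Because the choice of regions asks only that no Ring1B peak overlaps them, a separate Ring1B peak may lie near the same gene. Such a peak was found within 4 kb of a TSS for 82 of the 416 genes (19.7%, 16.2% to 23.8%), against 10.0% of all protein-coding genes. Of 285 genes whose Dzip3 peaks within 4 kb include no Dzip3-only peak, 222 (77.9%) had one, a share that follows in part from the overlap used to form them. A Ring1B peak lay within 1 kb of 26 of the 376 regions and within 10 kb of 84. Clip1, Gm14177, Sorcs2, Fam59b, Gm17385 and Nbeal2 are among the 82 genes, and Efcab6, Prdm14 and Usp16 are not. With the 26 regions near a Ring1B peak left out the share was 15.2%, and with the distance set to 10 kb it was 27.6%.

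Lists of gene families were then read against the 1.86% of all genes. Of 230 developmental transcription factors (Hox, Sox, Fox, Gata and others) only Cdx1 had a Dzip3-only region within 4 kb, while 160 had a Ring1B peak. The interval of that share, 0.0768% to 2.42%, still holds 1.86%. Dzip3 peaks that overlap a Ring1B peak were left out by the choice, so the contrast with Ring1B may follow in part from it. In Cdx1, a caudal-type homeobox gene, the region lies in a periodic intron sequence with 76 Dzip3, 31 Ring1B, 23 ubH2A and 1 input reads. In this region 92.04% of the words are repeated. None of 53 Wnt, Fgf and Bmp ligand genes had one (0 to 6.76%), against 23 with a Ring1B peak, and none of the 10 lineage genes that the study tested singly (0 to 27.8%), against 4. Of 19 pluripotency genes 1 did, Prdm14, a regulator of the naive state, with 75 Dzip3, 15 Ring1B, 18 ubH2A and 3 input reads at 3899 bp from a TSS, in sequence of which 67.2% of the words are repeated. Nanog had a Dzip3-only peak just outside the limit, 4014 bp from a TSS, with 51 Dzip3, 38 Ring1B, 34 ubH2A and 11 input reads. Of 39 Polycomb and H2A ubiquitin genes 1 did, Usp16, an H2A deubiquitinase, with 83 Dzip3, 27 Ring1B, 12 ubH2A and 22 input reads, where 95.4% of the words are repeated.

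Keratins and keratin-associated proteins had the highest share among lists of 30 genes or more, 7 of 100 (3.43% to 13.7%), against the 1.86% of all genes. The genes were Krtap4-9, Krtap4-2, Krtap9-5, Krt34, Krt5, Krtap4-16 and Krtap9-1, and 6 of the 7 lie in the chromosome 11 cluster. Ion channels had 7 of 140 (5.00%, 2.44% to 9.96%), spread over 6 chromosomes. Kcnt1, a sodium-activated potassium channel, held 123 Dzip3, 25 Ring1B, 55 ubH2A and 2 input reads. Kcnh3, a voltage-gated potassium channel, held 61 Dzip3, 39 Ring1B, 38 ubH2A and 9 input reads. At Kcne3 the counts were 51 Dzip3, 2 Ring1B, 13 ubH2A and 2 input reads. All 7 channel regions were in unique sequence. A Ring1B peak lay within 4 kb of 37 of the 140 ion channel genes, Kcnh3 among them, against 10.0% of all genes, and keratin genes had 9 of 100.

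The intervals of the other lists held the 1.86% of all genes, with exceptions on the low side. Olfactory receptors had 6 of 1113 (0.539%, 0.247% to 1.17%) and vomeronasal receptors 0 of 328 (0 to 1.16%). Zinc finger genes had 6 of 437 (1.37%), solute carriers 6 of 370 (1.62%), ribosomal protein genes 4 of 146 (2.74%), RING and TRIM ligases 1 of 146 (Rnf135), orphan G protein receptors 1 of 97 (Gpr162), cytochromes P450 0 of 98 and predicted gene models 49 of 3473 (1.41%, 1.07% to 1.86%). Histone genes had 2 of 73, Hist1h2ac and Hist1h2bc, which share 1 region of 69 Dzip3, 58 Ring1B, 23 ubH2A and 2 input reads. All of its words occur again, so reads from other histone genes cannot be told apart. Protocadherins had 2 of 36, Pcdhb4 and Pcdhb16, serpins 2 of 60 and defensins 2 of 55.

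**Figure D5:**
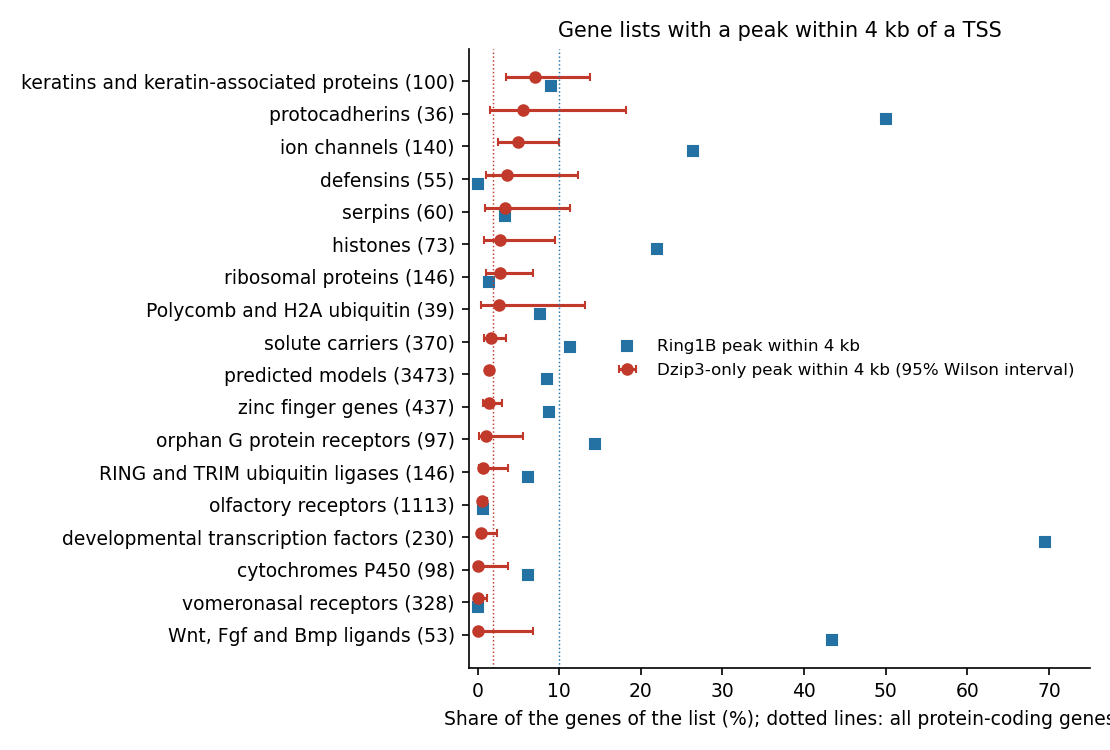
Share (%) of the genes of each list with 30 genes or more that have a Dzip3-only region (circles, with 95% Wilson intervals) or a Ring1B peak (squares) within 4 kb of a TSS, with list sizes in parentheses. Dotted lines mark all protein-coding genes, 1.86% and 10.0%. Developmental transcription factors have 160 of 230 genes with a Ring1B peak and 1 with a Dzip3-only region, and keratins have the highest Dzip3-only share.

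Peaks just inside and just outside the limits of the choice had like read counts. The 3 farthest members were at Scx, Serpinb7 and Lrfn4, at 3948, 3945 and 3940 bp, with 67, 69 and 76 Dzip3 reads. Just outside were peaks at Hipk2, Nanog and Cacna1s, at 4003, 4014 and 4024 bp, with 63, 51 and 71 Dzip3 reads. Of the peaks left out for an overlap, the smallest overlaps were 2.00% at Vipr1, 8.79% at Mcf2l and 19.9% at Ddx55. Their counts of 50, 77 and 66 Dzip3 reads lie within the range of the members.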

How the data were processed

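ChIP-seq libraries of E14 mES cells were available for Dzip3, Ring1B, ubH2A and input DNA, 1 of each. The labels name shearing with a Picoruptor, whereas the methods of the study name micrococcal nuclease. Per the study's methods and the file headers, the authors aligned reads to mm9 with the Illumina pipeline and called peaks in each library with Partek Genomics Suite. The deposited counts are reads of each library in a peak and the height of its tallest window in extended reads, which the authors also divided by library size as RPM. The deposited percent columns give the share of a peak covered by peaks of another library. The deposited fold is the scaled ratio to input DNA, and the deposited p-value of each peak compares the library with input DNA and was not printed. Broken rows, 1 of the ubH2A list and 1 of the input list, were left out. On chromosomes 1, 10, 11 and 12 the ubH2A or the input list is not complete. There the absence of overlap rests on the deposited percent columns alone, also in the densest 1-Mb stretch. On the other chromosomes overlap was also taken from the lists, and it matched the percent columns in 277 of 277 regions.

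Peaks were placed by GENCODE vM1, and sequence was read from the mm9 (NCBIM37) reference. With 1 library per target no test was made. Wilson intervals of 95% cover counting error only, and reads are not independent molecules where PCR copies were kept. The baseline is windows of 209 bp every 1000 bp within 4 kb of a TSS. Named regions are the 12 highest, the 6 highest over a TSS, the 5 highest in fold, Ring1B ratio and ubH2A ratio, genes with several regions, regions at the limits of the choice, and members of the gene lists. The regions and lists were chosen with earlier results of these data known. Periodicity and its thresholds, CAGCAG, the GC weighting, the omission of the chromosome 11 cluster and the sequences shown were chosen after seeing the data. Some regions and sequences are not reported here. Functions were tested on simulated data. Python 3.11.15, numpy 2.4.6, pandas 2.3.3, scipy 1.17.1, pysam 0.24.0, numba 0.67.0 and matplotlib 3.10.9 were used.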

Additional observations from a re-analysis of the deposited data

How the results depend on the processing

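The distance limit and the height of the peaks moved most values. With a limit of 2 kb there were 229 regions and 243 genes, the coding-exon share was 34.1% and the median GC content was 58.2%. With 10 kb there were 682 regions and 845 genes, with a coding-exon share of 19.6%, a GC content of 55.7% and a Ring1B peak at 27.6% of genes. In the stronger 50% of the Dzip3 list there were 60 regions and 69 genes, with a GC content of 54.0% and a Ring1B peak at 26.1% of genes. By the centre of the peak 63.0% lay downstream of the TSS. Over regions with 1 or more input reads the median fold was 12.3. Without regions within 1 kb of a Ring1B peak 15.2% of genes had a Ring1B peak. The cause of these shifts was not tested. The other 76 values of the main results under alternatives moved by less than their counting error or 1.5 times. No region lay on Y, so the alternative limited to the autosomes and X was the same set. The other alternatives share regions with the main set, so the 76 values are not separate checks. The windows and the other sets of peaks were not rebuilt under the alternatives, so differences from them were not checked. No paired analysis was possible because every target has a single library, and no replicate could be left out. The libraries give about 33 extended reads at the lowest Dzip3 peak, so regions without a called Ring1B or ubH2A peak may still hold reads of either.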
